A study of Mus musculus with 8 samples.

Results

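The 10 genes described here are genes of the pancreatic duct: the ion transport genes Cftr, Slc4a4 and Car2, the keratin genes Krt19, Krt7, Krt8 and Krt18, the transcription factor gene Sox9, and the genes of the secreted or surface glycoproteins Spp1 and Muc1. They were chosen by name, as every probe other than a control that carries 1 of these symbols in the array files. This gave 18 probes on 45 spots of each array, out of 34850 probes with a gene symbol for 21597 genes. Of the 18 probes, 17 passed the signal filter, which asked for a red processed signal of at least 25 on at least 4 of the 8 arrays, as did 28105 probes in all. Each of the 10 genes passed on its brightest probe, which is the one that gives the gene's value below.

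Pancreas RNA of 8 female NOD/LtJ (NOD) mice, 12 weeks old, was labelled with Cy5 (red), 1 mouse to an array. Each array also received Cy3-labelled (green) RNA from a single pool of 8 age-matched female NOD.B10Sn-H2b/J (NOD.B10) mice, a congenic strain that shares the NOD background, carries the H2b haplotype and is not prone to diabetes. Replicates 1 to 4 were on slide 1 and replicates 5 to 8 on slide 2. The pool has no spread between animals. Since NOD RNA was red on every array, an effect of the dye and one of the strain cannot be told apart.

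Duct cells line the channels that carry digestive enzymes out of the pancreas, and they add the bicarbonate-rich fluid that flushes and buffers them. Bicarbonate enters the duct cell through the sodium bicarbonate cotransporter encoded by Slc4a4 or is made inside it by carbonic anhydrases such as that of Car2, and the chloride and bicarbonate channel encoded by Cftr lets it leave at the luminal side. The cells are held in shape by the simple epithelial keratins, of which those of Krt19 and Krt7 mark ducts while those of Krt8 and Krt18 are also made by acinar cells. Sox9 maintains duct and progenitor identity, Spp1 encodes the secreted phosphoprotein osteopontin, which macrophages also make, and Muc1 encodes a mucin of the luminal surface. NOD mice develop autoimmune inflammation around their islets, and the comparison with NOD.B10 mice asks how gene expression in the whole pancreas differs at a stage before overt diabetes.

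Signals differed in quality between dyes and slides. The software rated 21.6% to 35.3% of the red spots on an array and 57.6% to 60.7% of the green ones as well above background. The software's median coefficient of variation of red signal over repeated spots was 16.1% to 24.8% on slide 1 and 38.2% to 63.5% on slide 2. The grid was not rated as good on replicates 5, 6 and 7. All values below are log2 ratios of the NOD mouse over the pool unless a signal is named, so that 0 is no difference. Signals are in arbitrary units and depend on the probe, so levels were not compared between genes.

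None of the 10 duct genes was called different between NOD mice and the NOD.B10 pool. To be called, a gene had to differ by 2-fold or more with an adjusted p below 0.01 in limma's moderated test. Over all probes tested, 1.72% were called, 0.310% as higher and 1.41% as lower in NOD mice. At an unadjusted p under 0.05 there were 2 of the 10 genes, Cftr and Krt18, and 33.8% of all probes. The plain one-sample statistic called 0 of the 10. The median of the 10 mean log2 ratios was -0.061, beside -0.090 for all probes tested and -0.078 for 18396 genes with 1 probe each. The mean was below 0 for 8 of the 10 genes and for 59.0% of those genes. On single arrays the median of the 10 genes ranged from -0.27 in replicate 8 to 0.017 in replicate 3. In RNA of whole pancreas, fewer duct cells and less RNA per duct cell cannot be told apart.

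**Figure D1:**
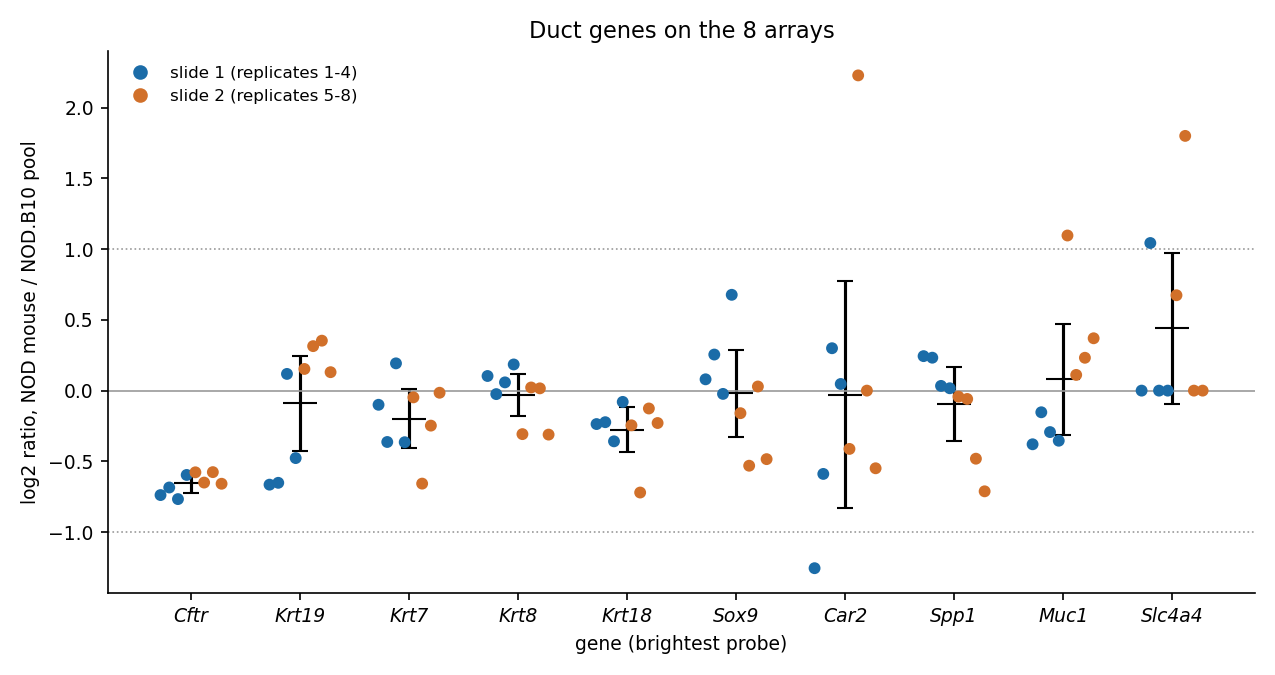
Log2 ratio (NOD mouse over NOD.B10 pool) of each duct gene's brightest probe on the 8 arrays, colored by slide, with the mean (wide tick) and its moderated 95% confidence interval (bars). Dotted lines mark a 2-fold difference. In these deposited ratios Cftr and Krt18 lie below 0 on all 8 arrays, Krt19, Spp1 and Muc1 separate by slide, and Car2 has a lone high value of 2.23. With median-centered signals or with normexp and loess, Krt18 had arrays above 0 and the slides of Krt19, Spp1 and Muc1 overlapped.

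Among the ion transport genes, Cftr had the lowest mean. Its brightest probe, at chr6:18272483-18272542 (mm8), was printed 10 times on each array. The lowest, median and highest of the 8 array values were -0.77, -0.65 and -0.58. All 8 arrays lay below 0 in the deposited ratios, and the median corresponded to 63.5% of the pool. The mean was -0.66 with a 95% confidence interval of -0.72 to -0.59 and an SD of 0.072 (n = 8), with an adjusted p of 0.00012. This is 1.58-fold lower, short of the 2-fold needed for a call. At a fold of 1.5 it would be called, as were 2.87% of all probes as lower and 1.07% as higher. At an adjusted p under 0.01 with any fold, 4.40% of all probes were lower and 2.54% higher, and 9.40% were lower on all 8 arrays. The values of Cftr on slide 1 (mean -0.70) and slide 2 (mean -0.62) overlapped.

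The Cftr signal in NOD mice was weak. Green processed signals were 79.7 to 96.9, and green was well above background in 80 of 80 spots. Red processed signals were 53.9 to 81.5, and red was well above background in 0 of 80 spots. The software had replaced the red signal by a stand-in value, which it uses for signals too close to background, in 32 of the 80 spots: 10 of 40 on slide 1 and 22 of 40 on slide 2. The log2 ratio therefore rests on red signals near the background of the arrays. With normexp background correction and loess the mean was -0.042 (adjusted p = 0.23). With median-centered signals it was -0.44 (adjusted p = 0.065), and the highest array was then at 0.28.

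The repeated Cftr spots spread more widely within an array than the array means did between mice. Within arrays the SD of the 10 spots was 0.42 to 1.24, which gives each array's mean a standard error of 0.13 to 0.39. The SD between the 8 array means was 0.072, below the smallest of these standard errors. A second Cftr probe, at chr6:18217739-18217798, had a log ratio of exactly 0 on 7 arrays and 0.39 on replicate 7. Its green signals reached at most 30.8, and red was a stand-in value on 7 arrays, so this probe gave almost no measurement of the gene.

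**Figure D2:**
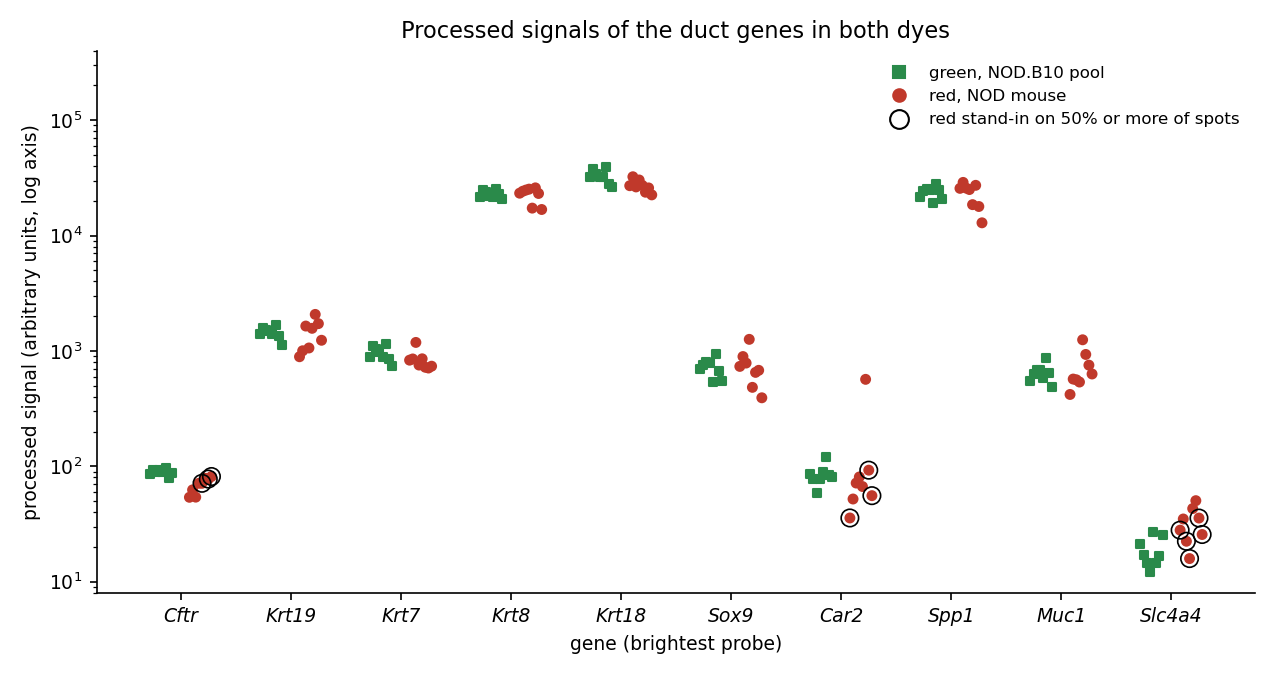
Processed signals (arbitrary units, log axis) of the duct genes' brightest probes in the green dye (pool, squares) and the red dye (NOD mice, dots) on the 8 arrays; circles mark arrays on which at least 50% of the red spots of the probe hold a stand-in value. Signals of Krt8, Krt18 and Spp1 lie between 12899.6 and 39140.1 in both dyes, while Cftr, Car2 and Slc4a4 lie at or below 96.9 apart from a red value of 567 and a green value of 121 for Car2.

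Slc4a4 was barely detected. Its brightest probe, at chr5:90272212-90272271, had green processed signals of 12.1 to 27.0 and red ones of 15.9 to 50.4, and neither dye was well above background on any array. The log ratio was exactly 0 on 5 arrays, and 1.04, 0.67 and 1.80 on replicates 2, 5 and 6. The mean of 0.44 (SD 0.68, n = 8) had a 95% confidence interval of -0.091 to 0.97 and an adjusted p of 0.22. The other Slc4a4 probes, at chr5:90311766-90311825 and chr5:90314138-90314197, had a log ratio of 0 on all 8 arrays with stand-in red values throughout, and the first of them is the probe that failed the signal filter. Little can therefore be read from these arrays about the cotransporter. Under median-centered signals the brightest probe was called higher in NOD mice, with a log2 ratio of 1.85 (adjusted p = 7.1e-07), as were 21.3% of all probes.

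Car2 varied more than any other duct gene. Its probe at chr3:14876950-14877009 had a mean of -0.029 with an SD of 1.03 (n = 8), a 95% confidence interval of -0.83 to 0.78 and an adjusted p of 1. The lowest, median and highest values were -1.26 in replicate 1, -0.21, and 2.23 in replicate 6. Only on replicate 6 was red well above background, with a red processed signal of 567 against 35.6 to 92.5 on the other arrays. Green signal was well above background on all 8 arrays, and at 121 it was also highest on replicate 6. Without replicate 6 the mean was -0.35.

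Red cells also make Car2, and red cell markers differed between arrays. The median log2 ratio of the 4 erythroid genes that passed the filter was between -0.39 and -0.11 on slide 1, and 2.20 in replicate 5, 1.55 in replicate 6 and 0.13 and 0.21 in the other mice of slide 2, so that the medians of the slides did not overlap. The alpha globin gene Hba-a1 reached 2.45 in replicate 5 and 1.70 in replicate 6. Car2 was high in replicate 6 alone and at -0.41 in replicate 5, where the erythroid genes were highest. The part of red cells in the Car2 values was not tested.

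The keratin genes gave strong signals, red well above background on all 8 arrays for each brightest probe. Krt18, which pairs with keratin 8 in the filaments of simple epithelia, was the member of this group with the lowest mean in the deposited ratios. With median-centered signals and with normexp and loess, Krt19 and Krt7 had lower means. The Krt18 probe at chr15:101859944-101860003 gave -0.72, -0.23 and -0.080 as the lowest, median and highest values. All 8 arrays lay below 0 in the deposited ratios, with replicate 6 apart from the others, which were between -0.36 and -0.080. The mean was -0.28 (SD 0.20, n = 8), with a 95% confidence interval of -0.44 to -0.12 and an adjusted p of 0.028, above the 0.01 needed. On these ratios the exact sign-flip test gave the smallest two-sided p that 8 arrays allow, 0.0078. The mean was -0.54 with median-centered signals (adjusted p = 0.054) and -0.31 with normexp and loess (adjusted p = 0.26). Some arrays then lay above 0, with the highest at 0.077 and 0.23.

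Krt8, the partner of Krt18, showed no such shift. The probe at chr15:101824817-101824876 had a lowest, median and highest value of -0.31, 0.019 and 0.18, with a mean of -0.032 (SD 0.18, n = 8), a 95% confidence interval of -0.18 to 0.11 and an adjusted p of 0.77. A second Krt8 probe, which starts 132 bases away, had a mean of 0.030 with an interval of -0.13 to 0.19. Both had red and green signals of 16827 to 32482. Under the deposited scaling both intervals lay within 0.19 of 0. Median-centered signals gave 0.45 (adjusted p = 0.064) and normexp with loess 0.62 (adjusted p = 0.030), so the direction for Krt8 depends on the scaling.

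Krt19 separated by slide in the deposited ratios, but not with median-centered signals or with normexp and loess. Its probe at chr11:99957168-99957227 gave -0.66, -0.65, 0.12 and -0.48 on slide 1 and 0.15, 0.31, 0.35 and 0.13 on slide 2. The slides did not overlap, and replicate 3 was the array of slide 1 nearest to slide 2. Over all 8 arrays the mean was -0.091 (SD 0.43) with an adjusted p of 0.70, which describes neither slide. The red signals carried the spread: the SD of log2 red was 0.43 and that of log2 green 0.17. Median-centered signals gave a mean of -0.95 with an adjusted p of 0.0021, short of 2-fold, and the slides then overlapped.

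Krt7 did not pass the test on either of its probes. The brightest, at chr15:101255775-101255834, had a lowest, median and highest value of -0.66, -0.17 and 0.19. It lay below 0 on 7 of 8 arrays, with a mean of -0.20 (SD 0.26, n = 8), a 95% confidence interval of -0.41 to 0.0084 and an adjusted p of 0.16. Median-centered signals gave -0.79 (adjusted p = 0.022) and normexp with loess -0.34 (adjusted p = 0.087). The other probe, at chr15:101251321-101251380, had a mean of -0.80 (SD 0.63, n = 8, adjusted p = 0.036), with red well above background on 1 array.

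Sox9 was measured by 3 probes. The brightest, at chr11:112601784-112601843, had a lowest, median and highest value of -0.53, 0.0030 and 0.68, with 4 arrays above and 4 below 0. The mean was -0.020 (SD 0.39, n = 8), with a 95% confidence interval of -0.33 to 0.29 and an adjusted p of 0.98. The probes at chr11:112599086-112599938 and chr11:112603585-112603644 both had a mean of -0.19, with adjusted p of 0.19 and 0.35. Replicate 4 was highest and replicate 8 among the lowest on the brightest probe and on the last of these, which was printed 10 times.

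Spp1 was measured with little spread between spots. Its probe at chr5:104681071-104681130 was printed 10 times, and all 80 spots were well above background in both dyes. The values were 0.24, 0.23, 0.033 and 0.017 on slide 1 and -0.043, -0.059, -0.48 and -0.71 on slide 2. The slides did not overlap, and replicates 7 and 8 were the lowest. Over all 8 arrays the mean was -0.096 (SD 0.33), with a 95% confidence interval of -0.36 to 0.17 and an adjusted p of 0.58. The standard error of an array's mean over its 10 spots was 0.023 to 0.067. The spread of spots was itself smaller on slide 1, with SDs of 0.074 to 0.094, than on slide 2, with 0.15 to 0.21.

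**Figure D3:**
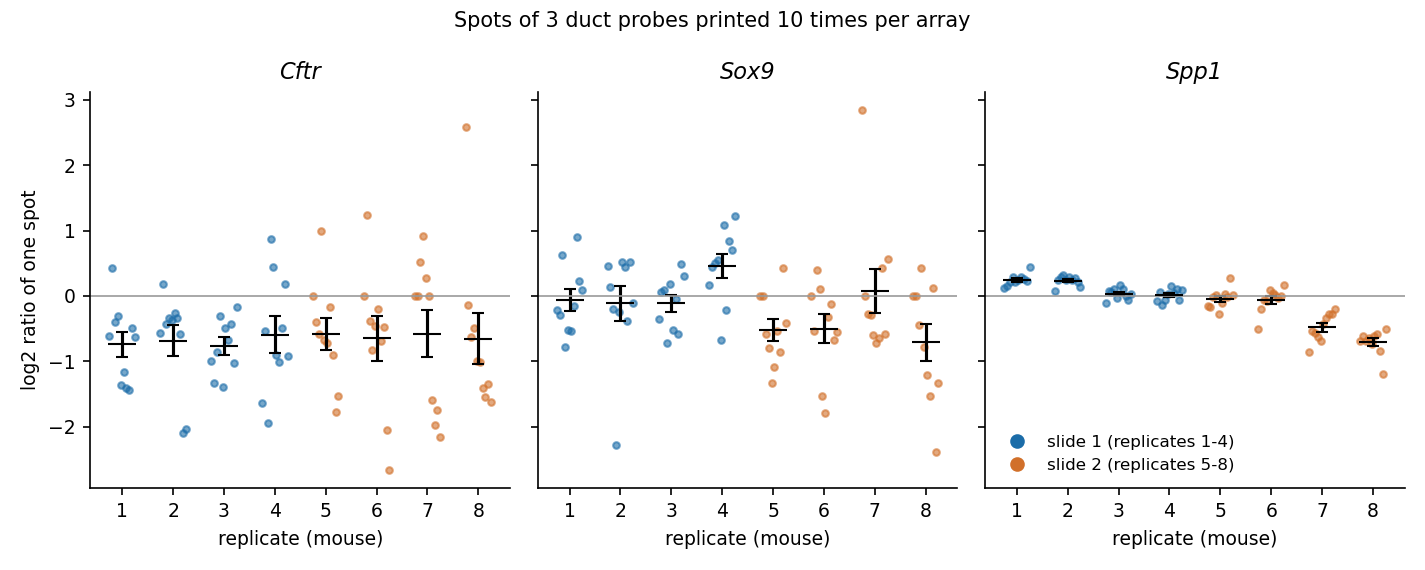
Log2 ratio of every spot of the 3 duct probes printed 10 times per array (Cftr, Sox9 and Spp1), by replicate and colored by slide; ticks and bars are the mean and standard error over the 10 spots of an array. Spp1 spots lie close together on each array while array means run from 0.24 to -0.71, whereas Cftr spots scatter widely around means that all lie between -0.77 and -0.58.

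Macrophages also make Spp1. The median log2 ratio of the 8 macrophage genes was between 0.076 and 0.60 on slide 1, and -0.31, 0.36, 0.34 and -0.22 on replicates 5 to 8. It was low in replicate 8, where Spp1 was lowest, and high in replicate 7, where Spp1 was next lowest. The part of macrophages in the Spp1 values was not tested.

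Muc1 had opposite signs on the slides in the deposited ratios, but not with median-centered signals or with normexp and loess. The brightest probe, at chr3:89316970-89317029, gave -0.38, -0.15, -0.29 and -0.35 on slide 1 and 1.10, 0.11, 0.23 and 0.37 on slide 2. The slides did not overlap, and replicate 5 was the highest. The mean over all 8 arrays was 0.079 (SD 0.50), with an adjusted p of 0.79. The other Muc1 probe starts 138 bases away, at chr3:89317108-89317265, and did not show this split. It lay below 0 on 7 of 8 arrays with a mean of -0.39 (SD 0.44, n = 8, adjusted p = 0.11).

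Of the 10 genes, 3 had slides that did not overlap in the deposited ratios, namely Krt19, Spp1 and Muc1, and so had 12.9% of all probes. With median-centered signals, and with normexp and loess, the slides of each of these 3 overlapped, and other genes separated instead. With median-centered signals these were Krt7, at -0.56 to 0.098 on slide 1 and -2.30 to -0.58 on slide 2, and Sox9, at -0.17 to 0.78 and -1.43 to -0.64, beside 18.1% of all probes. With normexp and loess it was Krt8, at 0.17 to 0.47 on slide 1 and 0.52 to 1.12 on slide 2, beside 12.8% of all probes. In the deposited ratios slide 2 was higher than slide 1 for Krt19, by 0.66 (95% confidence interval 0.22 to 1.09), and for Muc1, by 0.75 (0.23 to 1.26). It was lower for Spp1, with a difference of -0.46 (-0.86 to -0.054), and for Sox9, with a difference of -0.53 (-1.0 to -0.069), although the slides of Sox9 overlapped in these ratios. The sign depends on the scaling for Krt19 and Muc1: their differences were -0.64 and -0.43 with median-centered signals and -0.28 and -0.10 with normexp and loess. Krt8 also turned, from -0.23 to 0.55 and 0.66. For Spp1 they were -0.59 and -0.51 and for Sox9 -1.11 and -0.38, below 0 as in the deposited ratios. Adjusted over all probes tested, limma's slide contrast gave 0.12 for Krt19 and Muc1, and 0.20 for Spp1 and Sox9. None of the 10 passed 0.05, as 3.26% of all probes did. Unadjusted, 4 of the 10 were under 0.05, as were 19.3% of all probes, and the plain statistic passed 0. With normexp and loess Krt8 passed (adjusted p = 0.048), as did 2.64% of all probes. Without replicate 3, Krt19 passed, with a slide difference of 0.84 (adjusted p = 0.025), as did 1.23% of all probes. The slides held different mice, so slide and mouse cannot be told apart.

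Of the 60 genes of 4 further duct lists that passed the signal filter, 2 passed the slide contrast (3.33%, beside 3.26% of all probes), both higher on slide 2 and both named here after their values were seen. They were the claudin gene Cldn3, of tight junctions (difference 0.50, adjusted p = 0.029), and the trefoil factor gene Tff2 (difference 0.53, adjusted p = 0.027). With median-centered signals and with normexp and loess, neither passed: the differences were 0.24 and 0.23 for Cldn3, and -0.62 and -0.46 for Tff2, which turned. With 1 mouse left out, the adjusted p was 0.028 to 0.081 for Cldn3, below 0.05 only without replicate 3 or 6, and 0.025 to 0.074 for Tff2, below 0.05 only without replicate 8.

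Of 11 acinar cell genes, 1 passed the slide contrast, the elastase gene Cela2a (difference 1.11, adjusted p = 0.0085), which is named here after its value was seen. Its difference was -0.058 with median-centered signals and 0.12 with normexp and loess. The median log2 ratio of the 11 was between -0.18 and -0.016 on slide 1 and between 0.043 and 0.34 on slide 2 in the deposited ratios, and the slides overlapped with median-centered signals and with normexp and loess. Mesothelium, which also makes simple epithelial keratins, had medians of -0.60 to 0.15 on slide 1 and -0.57 to 0 on slide 2 over 5 genes, and red was well above background on at least 4 arrays for 1 of them. The median of the 4 erythroid genes was also lower on slide 1, at -0.39 to -0.11, than on slide 2, at 0.13 to 2.20, although the slides of Hba-a1 and Slc4a1 overlapped. The medians did not overlap with median-centered signals either, where the highest of slide 1 was 0.011 and the lowest of slide 2 was 0.038, and overlapped with normexp and loess. None of the 4 genes passed the slide contrast. The part of these cells in the slide differences of the duct genes was not tested.

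Signals of most duct genes spread more in the red channel, that of the NOD mice, than in the green one. The SD of log2 red was larger than that of log2 green for 9 of the 10 genes, all but Krt18. These include Cftr, Car2 and Slc4a4, whose red signal was near background. Red signals over repeated spots had a median coefficient of variation of 38.2% to 63.5% on slide 2. The red SD thus holds noise of the measurement as well as differences between mice. Over the 7388 probes with strong signal (well above background on each array in red and in green), the median SD was 0.33 for log2 red and 0.20 for log2 green, the green channel being the same pool each time. The median SD of their log2 ratios was 0.25. Krt8 at 0.18 and Krt18 at 0.20 lay below it, and Krt7 at 0.26, Spp1 at 0.33, Sox9 at 0.39 and Krt19 at 0.43 above it. Of those probes, 9.57% had a larger SD than Krt19 and 75.4% a larger SD than Krt8.

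Where a gene had several probes, the probes did not always give the same value for the same RNA. The Krt7 probes lie 4454 bases apart by their starts. The weaker probe, with red well above background on 1 array, was lower than the brightest on 5 of 8 arrays, with differences of -1.45 to 0.13. On replicate 8 the brightest probe gave -0.015 and the other -1.45, while on replicate 4 they gave -0.36 and -0.33. The Muc1 probes differed by a mean of -0.038 on slide 1 and of -0.89 on slide 2, and both had signals of a like range. The Krt8 probes differed by -0.19 to 0.35. For Sox9 the probe printed 10 times differed from the brightest by -0.37 to 0.041. Probe sequences and exon positions were not analysed here.

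**Figure D4:**
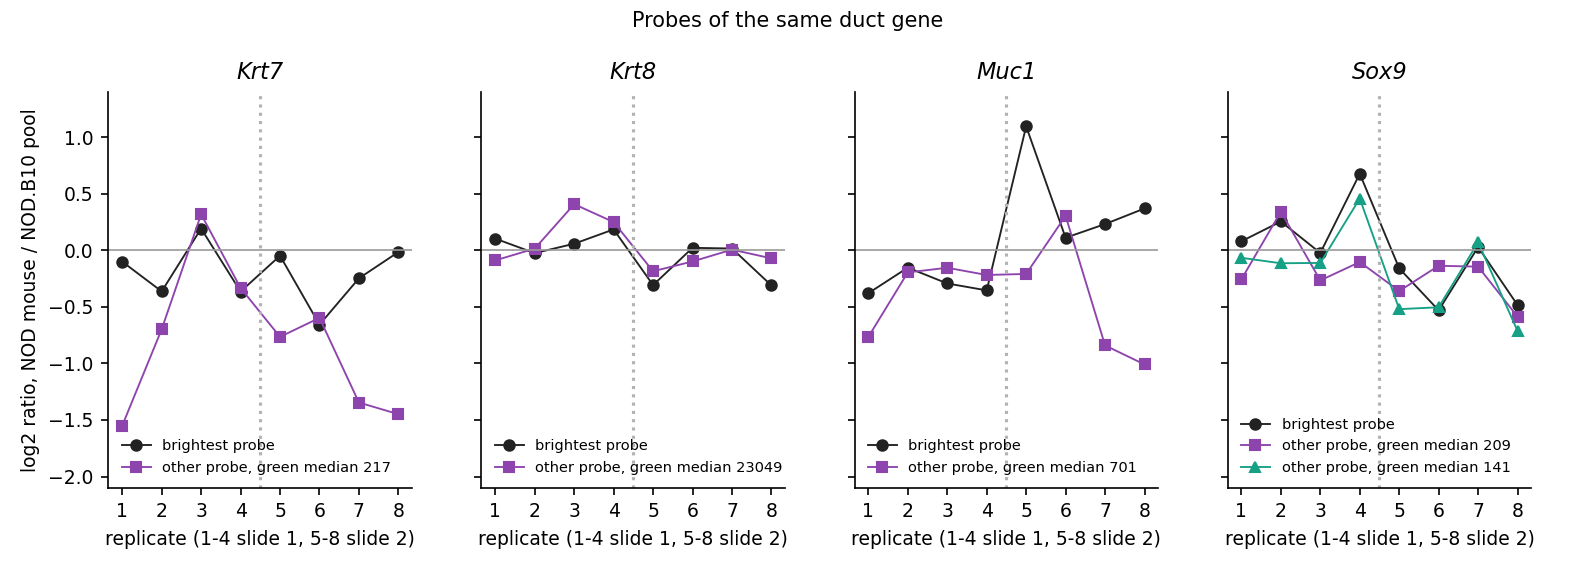
Log2 ratio of each probe of Krt7, Krt8, Muc1 and Sox9 on the 8 arrays, by replicate; the dotted line divides the slides, and the legend gives the median green processed signal of the other probes. The Krt8 probes run within 0.35 of each other, whereas the Muc1 probes differ by up to 0.19 in one direction and -1.38 in the other, the latter on replicate 8.

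The pair of Krt8 and Krt18 did not pass a test of correlation across the mice, with p adjusted over 3 pairs. The pair of Sox9 and Cftr is not reported because the Cftr array means differed by less than the error of their spots. Besides Krt19 and Krt7, no other pairs were tested. Krt8 and Krt18 had a Pearson's r of 0.0099 and a Spearman's rho of 0.095 over 8 mice (exact permutation p = 0.98 and 0.84, adjusted p = 0.98 and 0.88). Without the 2 mice farthest from the median of Krt8, r was 0.37. For Krt19 and Krt7 no value over all mice is given, because the slides of Krt19 did not overlap and a pooled r would mix slide with mouse. With 4 mice a slide, no correlation was computed within slides.

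Other genes of duct function were read from 4 lists. Among 18 further genes of bicarbonate and fluid secretion, 17 passed the signal filter, 0 were called higher and 1 lower, with a list median of -0.11. The gene called was Car4, a carbonic anhydrase anchored at the cell surface, at -1.43 (SD 0.62, n = 8, adjusted p = 0.0043) and below 0 on all 8 arrays. Red was well above background on none of them for Car4, and normexp with loess gave -0.022. The adenosine receptor gene Adora2a had the highest mean, 0.51 (adjusted p = 0.0017), above 0 on all 8 arrays, and passed the adjusted p without reaching 2-fold. The water channel gene Aqp5 was at 0.46 (adjusted p = 0.35). The receptor gene for secretin, Sctr, was at -0.53 (adjusted p = 0.099).

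Among 17 genes of epithelial keratins, adhesion and junctions, 16 passed the filter and 0 were called, with 3 at an adjusted p under 0.01. Over all probes tested, 2.54% were higher and 4.40% lower at that adjusted p with any fold. The surface glycoprotein gene Cd24a was at 0.60 (adjusted p = 0.0052) and Ezr, which encodes the linker ezrin and is named Vil2 on the array, at 0.47 (adjusted p = 0.0031), both above 0 on all 8 arrays. The E-cadherin gene Cdh1 was at -0.69 (adjusted p = 0.0029), with red well above background on no array, and median-centered signals gave 0.048. The plakoglobin gene Jup was at -0.63 (adjusted p = 0.24), with red well above background on no array. It would be called with median-centered signals, at -1.38 (adjusted p = 9.3e-05), as were 1272 of 28105 probes as lower. Genes of the secretion and secreted product lists not named here would be called higher under that scaling. Normexp with loess gave -0.12 for Jup. The median of the list was -0.070.

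Among 14 transcription factor, Notch and cilium genes, 13 passed the filter, 1 was called higher and 0 lower, with a median of -0.33. Prox1, a homeobox gene active in the developing pancreas, was called at 1.26 (SD 0.56, n = 8, adjusted p = 0.0048), above 0 on all 8 arrays, and normexp with loess gave 0.19. The cilium gene Pkd2 was next at 0.044. Notch2 was at -0.76 (adjusted p = 0.037) and its target Hes1 at -0.81 (adjusted p = 0.081), both with red well above background on no array. Foxa2, a forkhead factor of the foregut lineage named here after its value was seen, was at -0.54 (adjusted p = 0.0015), short of 2-fold.

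Among 14 mucin, trefoil and other secreted product genes, all 14 passed, 0 were called higher and 1 lower, with a median of -0.34. The trefoil factor gene Tff3 was called at -1.22 (SD 0.59, n = 8, adjusted p = 0.0065), below 0 on all 8 arrays, with red well above background on none and -0.065 under normexp with loess. The mucin genes Muc6 and Muc20 were at 0.41 (adjusted p = 0.45) and 0.36 (adjusted p = 0.041). Muc4 was at -0.55 (adjusted p = 0.11). Besides Tff3, 2 genes had an adjusted p under 0.01 without reaching 2-fold, Ambp at -0.47 and Dmbt1 at -0.39. Both were named after their values were seen and had strong red signal on all 8 arrays, although Dmbt1 was at 0.50 with normexp and loess. With any fold, 4.40% of all probes tested were lower and 2.54% higher at that adjusted p.

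**Figure D5:**
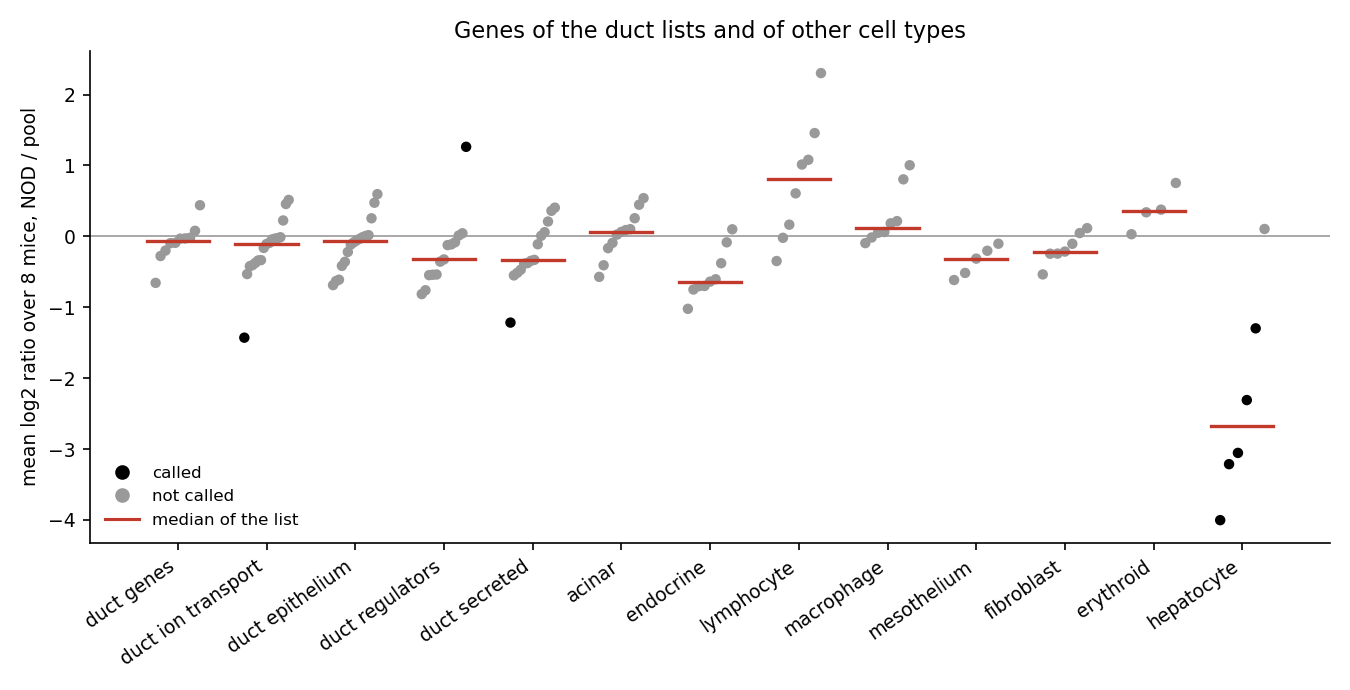
Mean log2 ratio over 8 mice of the genes that passed the signal filter in the duct genes, 4 further duct lists and 8 lists of other cell types, each point 1 gene on its brightest probe. Black points were called, and red bars are the list medians, which run from -2.68 for hepatocyte genes to 0.81 for lymphocyte genes, with -0.061 for the duct genes.

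Markers of other cells in the tissue gave the setting of these values. The median was 0.063 for 11 acinar genes, from -0.57 for Amy2a5 to 0.54 for Ctrb1, with 0 called. It was -0.64 for 9 endocrine genes, from -1.02 for Ppy to 0.10 for Iapp, with 0 called. Lymphocyte genes had a median of 0.81 over 8, from -0.35 for Cd79a to 2.30 for Lck, and macrophage genes one of 0.12 over 8, from -0.095 for Cd14 to 1.00 for Ctss, with 0 called in both. Mesothelial genes had a median of -0.31, from -0.62 for Upk3b to -0.10 for Upk1b, and fibroblast genes one of -0.21 over 7, from -0.54 for Col1a1 to 0.12 for Pdgfrb, with 0 called in both. Erythroid genes had a median of 0.36, from 0.031 for Slc4a1 to 0.75 for Hba-a1, with 0 called. With median-centered signals, the genes named in this paragraph that would be called were Lck (2.70), Ctss (1.32) and Hba-a1 (1.11), all higher. Genes of these lists not named here would be called too: lymphocyte and acinar ones higher and endocrine ones lower. Under that scaling 5976 of the 28105 probes tested were called higher and 1272 lower.

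Hepatocyte genes stood apart from the duct genes. Of 6 that passed the filter, 5 were called lower in NOD mice: Fgg at -4.0, Ahsg at -3.21, Fgb at -3.05, Alb at -2.31 and Apoa1 at -1.30, all below 0 on all 8 arrays. Red was well above background on no array for Fgg, Fgb and Apoa1 and held stand-in values on 8, 5 and 7 arrays, so their sizes rest on stand-in values. Normexp with loess gave -0.50, -0.55 and -0.060 for these and -0.94 for Ahsg and -1.27 for Alb. Ttr was at 0.10. The summed red signal of these genes was 668 to 1793 per NOD mouse and the summed green signal of the pool 4211 to 6434. The part of this difference in the values of the duct genes was not tested.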

How the data were processed

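Two-color Agilent Whole Mouse Genome arrays were read by the authors with Feature Extraction (version 10.7.3.1), with probe positions on mm8. The deposited log10 ratios compare red with green at each spot. The deposited processed signals are intensities that the software had background-subtracted, detrended and normalized for dye within each array. The authors' files also hold yes or no flags for signals well above background, irregular spots and stand-in values. The deposited trend surface over the array, a score that the authors' software had computed, was not used for the alternatives listed below. The deposited background-subtracted signals were used for the median-centered alternative.

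Log10 ratios were turned into log2 ratios and averaged over the spots of a probe. A flag was taken to hold for a probe on an array where at least 50% of its spots carried it. Probes that name a gene and reach a red processed signal of 25 on 4 or more arrays entered limma (version 3.58.1) in R 4.3.3, against 0 and between slides, with Benjamini-Hochberg adjustment over all 28105 probes. Calls asked for 2-fold and an adjusted p under 0.01, and the slide contrast for an adjusted p under 0.05. The tests were run on simulated data first. The study's own filters on human homologues were not applied. Sign flips, permutations and plots were made in Python 3.11.15 (scipy 1.17.1, pandas 2.3.3, numpy 2.4.6, matplotlib 3.10.9), and the R package data.table (version 1.17.8) read the files.

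The 8 arrays formed 1 group, mapped from the sample titles, and the slides came from the barcodes in the file headers. Arrays give no read depth, and their number limits the precision. The 10 duct genes are named on all probes, and of each duct list the genes called and the highest and lowest 2, and of each list of another cell type the genes called, the highest and the lowest. The members and lists were chosen with earlier results of these data known. Genes of the lists were matched by symbol or by their older name on the array, and each value is that of the gene's brightest probe, by its log2 signal averaged over red and green. Alternatives were the plain statistic, leaving out the signal filter or irregular spots, asking for red well above background on 4 or more arrays, centering background-subtracted signals on the median ratio (median-centered signals), normexp (offset 50) with loess, the ratio of processed signals, the median over mice, slide as a covariate, the other probes, other thresholds, and each mouse left out. Arrays with a good grid and each slide alone were added after seeing the data.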

Additional observations from a re-analysis of the deposited data

Results flagged for a closer look

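On 2 of 14 duct probes, 1 array lay far from the other 7, by the gap to its nearest neighbour as a share of the whole range. The other 4 duct probes, 1 of Cftr and 3 of Slc4a4, had a ratio of exactly 0 on at least 4 arrays and are not counted. That share was 0.565 for Krt18, where replicate 6 was lowest at -0.72, and 0.554 for Car2, where replicate 6 was highest at 2.23. The weaker Cftr probe had a share of 1, but this follows from its zeros: replicate 7 was at 0.39 and the other 7 arrays, all with stand-in red values, were at 0, so the share says nothing of the gene. The limit was Dixon's 95% critical value for 8 samples, which chance passes in about 1 in 20 groups. Among the 42 further genes named from the lists, 1 had such an array, Ambp, with a share of 0.564 and a lowest value of -0.99.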

How the results depend on the processing

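Of the 10 duct genes, 0 were called under the deposited scaling, and 1 was called higher with median-centered signals (Slc4a4), as were 21.3% of all probes, and 1 lower at a fold of 1.5 (Cftr), as were 2.87%, with 0 under the other alternatives. The median of the duct genes was -0.42 with median-centered signals and -0.19 on either slide alone, and -0.12 to -0.00023 when 1 mouse was left out. The count of duct genes that differed by slide was 1 with normexp and loess (Krt8, adjusted p = 0.048, as 2.64% of all probes passed) and 0 to 1 when 1 mouse was left out (Krt19 without replicate 3). Directions turned for 7 of the 10 duct genes, of which Cftr alone had a mean that passed an adjusted p of 0.01. The other probe gave 0.049 for Cftr, where it was weak, and 0.030 for Krt8 and -0.39 for Muc1, where its signals were of a like range. Median-centered signals gave 0.45 for Krt8 and -0.73 for Muc1, and normexp with loess gave 0.62 for Krt8, 0.030 for Car2, 0.093 for Spp1 and -0.17 for Muc1. The median over mice was 0.12 for Krt19, 0.019 for Krt8, 0.0030 for Sox9 and -0.021 for Muc1. Arrays with a good grid gave 0.0022 for Krt8, 0.10 for Sox9 and -0.16 for Muc1. Slide 1 alone gave 0.081 for Krt8, 0.25 for Sox9, 0.13 for Spp1 and -0.29 for Muc1, and slide 2 alone gave 0.24 for Krt19 and 0.32 for Car2. With 1 mouse left out, Krt8 ranged from -0.063 to 0.0075, Sox9 from -0.12 to 0.053, Car2 from -0.35 to 0.15 and Muc1 from -0.067 to 0.14. The difference between slides also turned. With median-centered signals it was -0.64 for Krt19, 0.55 for Krt8, -0.010 for Car2 and -0.43 for Muc1. With normexp and loess it was -0.021 for Cftr, -0.28 for Krt19, 0.66 for Krt8, -0.0097 for Car2, -0.10 for Muc1 and -0.023 for Slc4a4. Arrays with a good grid gave 0.14 for Krt7, -0.17 for Car2 and -0.26 for Slc4a4. With 1 mouse left out it ranged from -0.16 to 0.055 for Krt7, -0.17 to 0.024 for Krt18 and -0.036 to 0.62 for Slc4a4. The causes were not tested. Cftr on its brightest probe, Krt18 and Krt7 were below 0 under every alternative run, and Slc4a4 was at or above 0. Over all probes, 87 were called higher and 397 lower; these were 5976 and 1272 with median-centered signals, which moved the median of all probes from -0.090 to 0.087, 3470 and 690 with the ratio of processed signals, 91 and 42 with red well above background, and 7 and 0 with normexp and loess. No paired analysis was possible because the 8 mice form 1 group. An adjusted p of 0.05 was already the threshold for the slide contrast. Red signal near background limits Cftr, Car2 and Slc4a4.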
